A study of Homo sapiens with 6 samples.

Results

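The Rhox genes are a family of reproductive homeobox genes on the mouse X chromosome, and 10 of them were followed here: Rhox5, 7 copies of Rhox2 (a, b, c, d, e, g and h) and 2 copies of Rhox4 (a and b). They were taken by name from the deposited gene tables, 10 of 53492 genes, and 32 further genes and pseudogenes named Rhox served as their surroundings. The members were chosen by their FPKM in these libraries, in that the names were put forward with these levels and the group means of Rhox5 in view, so the levels below are a description with no test. No threshold on the level sets the members apart. Rhox2f at 13.9 and Rhox1 at 7.66 FPKM lie inside the members' range of mean levels, which runs from 1.77 FPKM for Rhox4b to 162.1 FPKM for Rhox5.

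Polyadenylated RNA was sequenced in 6 libraries. In 3 of them the cells are labelled as transfected with the plasmid pCS2-eGFP-N, which carries enhanced green fluorescent protein (GFP), and in the other 3 with pCS2-eGFP-CCNB1IP1, which by its name joins GFP to CCNB1IP1, a ubiquitin ligase that binds cyclin B1. The groups are called control and CCNB1IP1 libraries below. All 6 are labelled SH-SY5Y, a human neuroblastoma line, but the gene tables carry mouse names and 19 numbered chromosomes, and none of the identifiers is among the 62700 of a human reference. Values are FPKM, fragments scaled by transcript length and library size, so levels of different genes can be set side by side per length. Nothing in the labels says that replicates were separate cultures, and p-values therefore measure the spread between these libraries, which may be technical.

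Rhox proteins are homeodomain transcription factors best known from testis, epididymis, ovary and placenta. In most other mouse tissues the cluster is held silent, in part by DNA methylation, and Rhox5, first described as Pem, is also known to be transcribed in tumour cell lines. The cluster is usually divided into an alpha part with repeated Rhox2, Rhox3 and Rhox4 units, a beta part with Rhox5 to Rhox9, and a gamma part with Rhox10 to Rhox13. Copies of a kind are near-identical, which makes the copy a read was assigned to uncertain, and each copy's value is given beside the sum of its kind.

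Relative depth could be read from the confidence intervals. With the control mean near 1 it was 0.954 to 1.05 in the control libraries and 0.76 to 1.04 in the CCNB1IP1 libraries, where replicate 2 was the shallowest. The mouse Ccnb1ip1 gene had group means of 0.0762 and 0.108 FPKM, so it gave no check of the labels; the introduced sequence was not analysed here. Of 10 markers of noradrenergic neuroblastoma, 9 were at 1 FPKM or more in every library and the tenth, Dbh, ran from 0.371 to 1.14 FPKM. Their summed level was 921 to 1030 FPKM in the control libraries and 762 to 850 in the CCNB1IP1 libraries, most of it from Chgb, Ret and Hand2.

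Rhox5 stood alone in the beta part of the cluster. It lies on chromosome X from 36891636 to 36897311 (ENSMUSG00000095180.11; the sources used here name no genome build), and no other gene of the tables overlaps it. The 3 control libraries had 162.2, 159.8 and 165.2 FPKM, and the 3 CCNB1IP1 libraries had 171.6, 156.7 and 157.0 FPKM. The values lay within a narrow band, the groups overlapped, and both the highest and the lowest library were from the CCNB1IP1 group. By mean level Rhox5 was 325th of the 13231 genes with a mean of at least 1 FPKM, and 13th of the 426 among them on the X chromosome. These are bulk libraries, in which fewer cells of a type and less RNA per cell cannot be told apart.

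The beta genes after Rhox5 were close to 0, whereas before it lie the pseudogenes Rhox2-ps and Rhox7-ps2, with means of 1.59 and 6.46 FPKM, and Rhox2h, with 17.2 FPKM. Rhox6, whose start lies 24.15 kb after that of Rhox5, reached at most 0.215 FPKM. Rhox7a was above 0 in 1 library, at 0.640 FPKM, and Rhox7b reached 0.189 FPKM. Rhox8, known from Sertoli cells, was above 0 in 1 library, at 0.0415 FPKM, and Rhox9 was listed at 0 in all 6. Of the 6 beta genes, 1, Rhox5 itself, was at 1 FPKM or more in every library, and the other 5 were below 1 FPKM in every library. All 4 gamma genes, which include Rhox10, known from male germ cells, and Rhox13, were listed at 0 in every library.

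**Figure D1:**
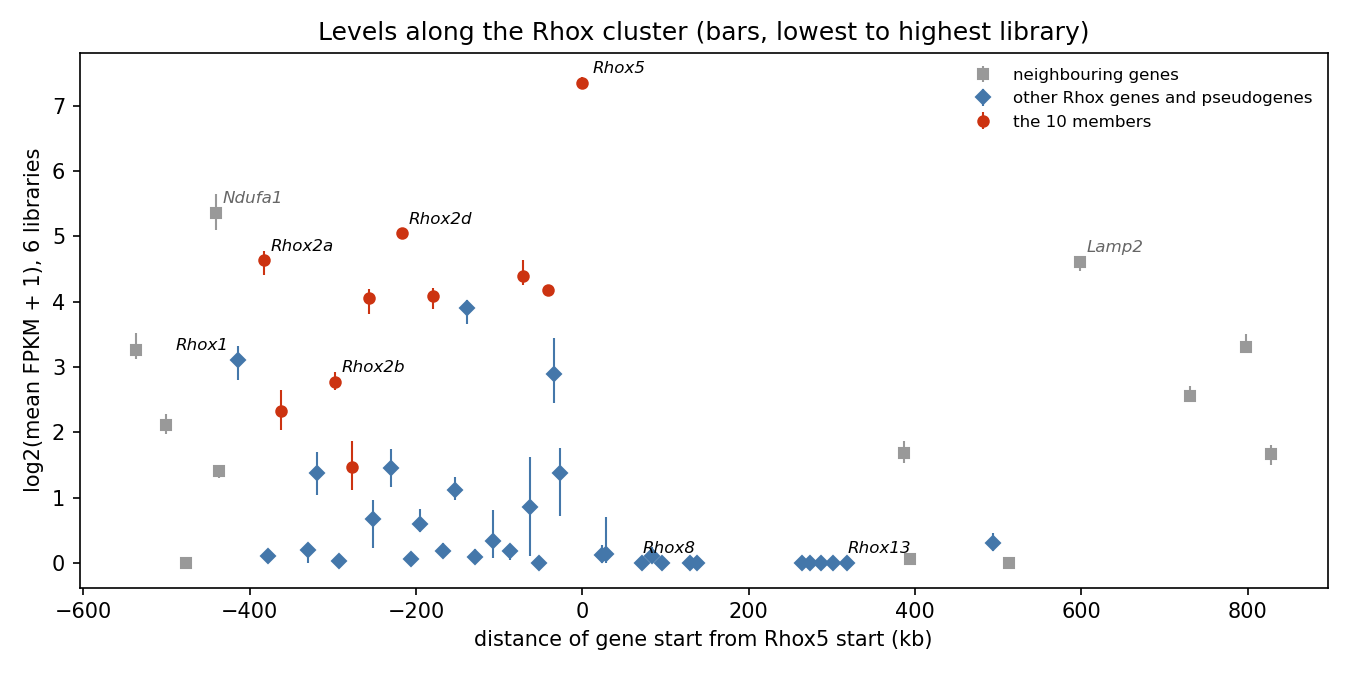
Mean level of each Rhox gene over the 6 libraries, as log2(mean FPKM + 1), against the distance of its start from that of Rhox5 in kilobases; bars run from the lowest to the highest library, red circles are the 10 members, blue diamonds the other 32 Rhox genes and pseudogenes, and grey squares neighbouring genes. Rhox5 is the highest point at 162.1 FPKM, the Rhox2 copies lie before it at up to 32.0 FPKM, and the Rhox genes up to Rhox13 after it are near 0.

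The alpha part was mixed, with 13 of its 24 genes at 1 FPKM or more in every library and 9 below 1 FPKM in every library. Levels grouped by kind of gene. All 8 Rhox2 copies were at 5.27 FPKM or more in each library. The Rhox3 genes, which alternate with them, were below 1 FPKM in every library for 7 of 7, with sums of 0.573 to 1.94 FPKM. All 8 Rhox4 copies had lower means than any Rhox2 copy, from Rhox4a with 4.02 FPKM down to Rhox4f with 0.269 FPKM, and the lowest of them overlapped the Rhox3 genes, of which Rhox3c had a mean of 0.605 FPKM. Of 8 pseudogenes, Rhox7-ps2 was at 1 FPKM or more in every library (4.45 to 9.84 FPKM), from an implied 10.7 to 28.3 fragments.

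Levels of the genes that flank the cluster differed widely on both sides, and each side held a gene near 0. Before it, Ndufa1, a subunit gene of respiratory complex I, had 33.1 to 49.1 FPKM over the 6 libraries. Upf3b, of nonsense-mediated decay, had 7.74 to 10.4 FPKM, Nkap 2.95 to 3.86 and Rnf113a1 1.48 to 1.78, while Akap14 reached 0.0258. After the cluster, Lamp2, a lysosomal membrane protein gene, had 21.3 to 24.8 FPKM, Mcts1 8.24 to 10.3, Cul4b 4.5 to 5.54 and C1galt1c1 1.83 to 2.50, while Atp1b4 reached 0.011. Zbtb33, the gene of the methyl-DNA binding protein Kaiso, lies between Rhox13 and the distant pseudogene Rhox7-ps1 and had 1.89 to 2.65 FPKM. Tmem255a, whose span overlaps that of Zbtb33, reached 0.0589 FPKM, and Btg1b and Btg1c, also inside the interval, were listed at 0 in all 6 libraries. Rhox5 was higher in each library than any of the 10 neighbours the rule names, in any library.

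Among the Rhox2 copies, Rhox2d was the highest. It lies on chromosome X from 36675081 to 36679276 (ENSMUSG00000095698.3). Values of Rhox2d were 30.2, 33.7 and 30.5 FPKM in the control libraries and 33.9, 32.3 and 31.4 FPKM in the CCNB1IP1 libraries. It was the second of the 10 members in all 6 libraries, and its range was separate from those of Rhox5 above and Rhox2a below. The ratio of Rhox5 to Rhox2d had a median of 5.03 and ran from 4.74 to 5.41.

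Rhox2a, the copy nearest to Rhox1 (chromosome X, 36508629 to 36513339; ENSMUSG00000051827.12), had 23.6, 20.6 and 20.1 FPKM in the control libraries. The CCNB1IP1 libraries had 26.1, 26.5 and 25.6 FPKM. All 3 of the latter were above all 3 of the former, and Rhox2a was the one member of 10 whose groups did not overlap, where the groups did not overlap for 17.6% of all genes tested.

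A cluster of 4 copies followed in order of level, and neighbours in that order had overlapping ranges. Rhox2g (chromosome X, 36820768 to 36825123) had 19.8, 18.1 and 19.7 FPKM in the control libraries and 23.8, 18.1 and 20.9 in the CCNB1IP1 libraries. Rhox2h (36850642 to 36854930) had 18.1, 16.9 and 16.0 FPKM and then 16.96, 17.3 and 17.9. Rhox2g was above Rhox2h in 6 of 6 libraries, although their ranges over libraries overlapped.

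Rhox2e (chromosome X, 36712105 to 36723466) had 15.6, 15.2 and 16.3 FPKM in the control libraries and 17.6, 13.9 and 17.3 in the CCNB1IP1 libraries. Rhox2c (36635333 to 36651514) had 13.03, 17.3 and 13.7 FPKM and then 17.4, 15.6 and 16.4. Their order was not firm: Rhox2h exceeded Rhox2e in 4 of 6 libraries, and Rhox2e exceeded Rhox2c in 4 of 6. Rhox2c is the single member whose span overlaps another gene, Rhox3c, which had 0.170 to 0.966 FPKM. Strand was not stated, so reads of that pair may not be separable.

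Rhox2b was the lowest Rhox2 copy (chromosome X, 36593720 to 36598459). It had 5.27, 5.87 and 5.62 FPKM in the control libraries and 5.84, 6.60 and 5.86 in the CCNB1IP1 libraries. Its range was separate from that of Rhox2c above it and of Rhox4a below it. Rhox2d was 4.90 to 5.81 times Rhox2b, with a median ratio of 5.57, close to the ratio of Rhox5 to Rhox2d.

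The Rhox4 copies were lower and less even. Rhox4a (chromosome X, 36528991 to 36533785) had 5.25, 3.78 and 3.13 FPKM in the control libraries and 3.98, 4.02 and 3.94 in the CCNB1IP1 libraries. The control libraries held both its highest and its lowest value. Rhox4b (36614147 to 36618932) had 1.37, 1.52 and 2.09 FPKM and then 2.67, 1.80 and 1.17. For Rhox4b the CCNB1IP1 libraries held both extremes, and Rhox4a was above Rhox4b in 6 of 6 libraries with ratios of 1.49 to 3.83.

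**Figure D2:**
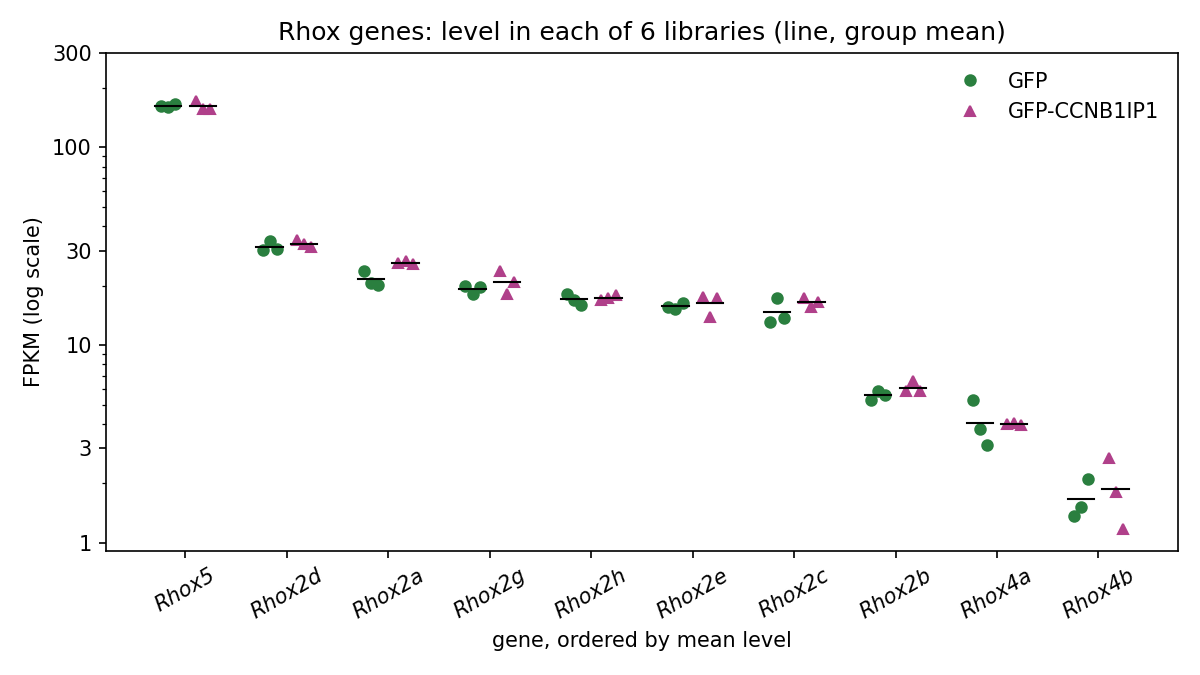
FPKM of the 10 members on a log axis, ordered by mean level, with 1 point per library (green circles, GFP; magenta triangles, GFP-CCNB1IP1) and a line at each group mean. Rhox5 sits near 160.0 FPKM, 7 Rhox2 copies between 5.27 and 33.9 FPKM and the Rhox4 copies between 1.17 and 5.25 FPKM; the 3 triangles of Rhox2a lie above its 3 circles.

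Sums over near-identical copies would be free of how reads were shared out only if all copies of a kind had the same length. All reads of the kind would also have to be assigned to it. Implied fragments per FPKM differed between copies. In control replicate 1, Rhox2b had an implied 70.2 fragments at 5.27 FPKM and Rhox2g 184 at 19.8 FPKM. The FPKM sums below therefore still depend in part on that sharing. The 8 Rhox2 copies, Rhox2f included, summed to 141.0, 142.7 and 133.6 FPKM in the control libraries and 155.8, 144.0 and 149.1 FPKM in the CCNB1IP1 libraries. The 8 Rhox4 copies summed to 13.5, 11.4 and 10.4 FPKM and then 11.98, 12.01 and 12.3 FPKM. Rhox5 was thus 1.05 to 1.24 times the summed Rhox2 copies (median 1.11) and 12.1 to 16.0 times the summed Rhox4 copies (median 13.5). Of all Rhox FPKM in a library, Rhox5 made up 46.3 to 50.9%, the Rhox2 copies 41.2 to 44.0% and the Rhox4 copies 3.19 to 4.02%.

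Shares within a kind showed how evenly the copies contributed. Rhox2d made up 21.1 to 23.6% of the Rhox2 sum, Rhox2a 14.5 to 18.4%, Rhox2g 12.6 to 15.3%, and Rhox2b 3.74 to 4.58%. Within the Rhox4 sum, Rhox4a made up 30.2 to 39.0% and Rhox4b 9.50 to 22.3%. A copy whose share was uneven was Rhox4g, which is no member and was chosen here after its values were seen. It had 0.954, 0.924 and 0.120 FPKM in the control libraries and 0.0749, 0.705 and 2.10 in the CCNB1IP1 libraries, from an implied 0.676 to 37.1 fragments. While Rhox4g varied with a coefficient of variation of 90.8% over the 6 libraries, the Rhox4 sum varied with 8.56%. Its median share of that sum was 6.48%, so much of this contrast was fixed in advance. The contrast cannot show that the sum is stable.

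The spread between libraries was then set beside the error that the deposited intervals imply. Fragments behind a value were estimated by squaring its ratio to its standard error, where the standard error is the distance from the value to its upper bound divided by 2. Rhox5 rested on an implied 1040 to 1270 fragments per library, Rhox2d on 266 to 401, Rhox2a on 237 to 318, Rhox2b on 65.4 to 84.4, Rhox4a on 47.5 to 82.7 and Rhox4b on 18.4 to 39.8. Over the 6 libraries the coefficient of variation of Rhox5 was 3.50%, against 2.88% from its intervals. For Rhox2d it was 5.0% against 5.44%, for Rhox2h 4.44% against 7.27% and for Rhox2b 7.42% against 11.6%. These 3 copies varied less than their intervals imply and the other 7 members more. The largest gaps were at Rhox4b (30.9% against 20.5%) and Rhox2a (11.8% against 6.07%). The spread over the 6 libraries includes any difference between the groups. For Rhox2a the SD was 1.89 FPKM within the control and 0.474 within the CCNB1IP1 libraries, against 2.80 over all 6.

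**Figure D3:**
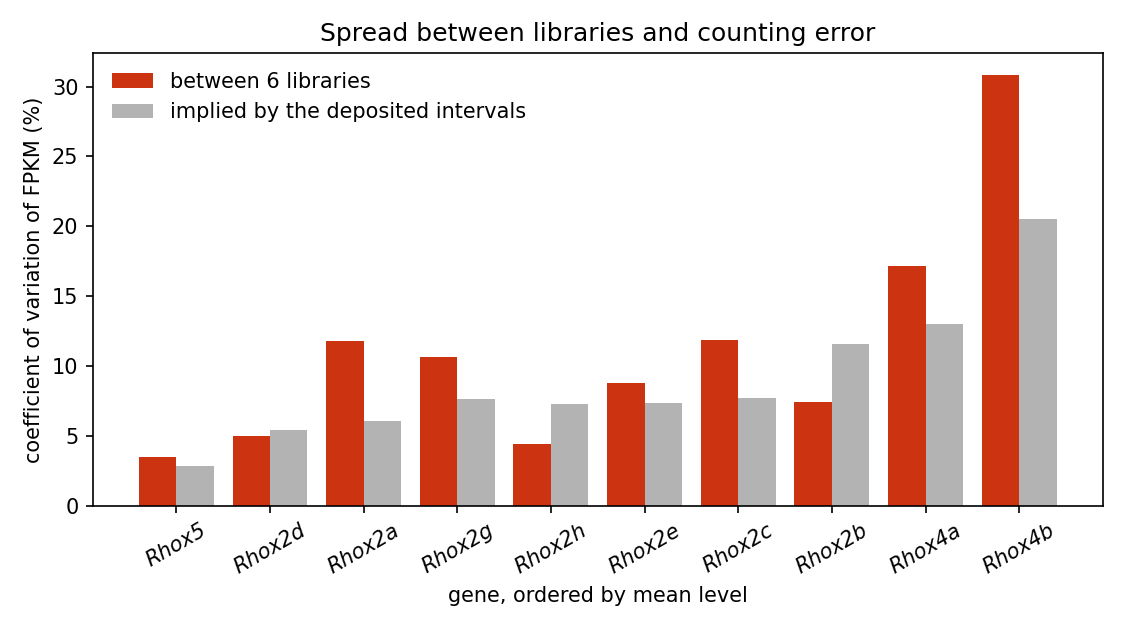
Coefficient of variation of FPKM for the 10 members in percent: red bars, between the 6 libraries without regard to group; grey bars, the value implied by the deposited confidence intervals. It ranges from 3.50% for Rhox5 to 30.9% for Rhox4b, and the red bar is lower than the grey one for Rhox2d, Rhox2h and Rhox2b.

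The comparison of GFP-CCNB1IP1 with control libraries asked whether introducing CCNB1IP1 went with another level of the Rhox genes. None of the 10 members passed the test. Rhox5 had 162.4 ± 2.71 FPKM (SD, n = 3) in the control libraries and 161.8 ± 8.52 in the CCNB1IP1 libraries, and Rhox2a had 21.5 ± 1.89 and 26.1 ± 0.474. The test was limma on log2(FPKM + 1), a scale that understates the change of low genes, with Benjamini-Hochberg adjustment over 13231 genes and a threshold of 0.05.

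By limma, 0 of 10 members were called, where the share of all genes tested that was called was 0.00756%, a single gene that is not a Rhox gene. At an unadjusted p under 0.05 there was 1 member, Rhox2a, against 11.4% of all genes. The groups did not overlap for 1 member, higher, against 17.6% of all genes in either direction, of which 8.7% were higher and 8.9% lower. The members' counts are thus near the background. Of the 10 log2 fold changes 9 were above 0 and 1, that of Rhox5, below, with a median of 0.069 beside 0.0037 over all genes. Near-identical copies share reads, so these are not 10 independent values.

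Rhox2a had a log2 fold change of 0.271 (SE 0.0697, 95% interval 0.109 to 0.432 before adjustment; unadjusted p = 0.00486, limma adjusted p = 0.270). Its mean was 21.3% higher in the CCNB1IP1 libraries, and 3 of 3 of them exceeded the highest control library. Over 14 alternative settings its log2 fold change stayed between 0.228 and 0.339, and the limma adjusted p between 0.236 and 0.517, so no setting called it.

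Rhox5 had a log2 fold change of -0.0063 (SE 0.0493, 95% interval -0.121 to 0.108; limma adjusted p = 0.978). The interval bounds the difference of the highest member more closely than that of any other. The interval of Rhox2d ran from -0.0953 to 0.192 around 0.0483, and that of Rhox2h from -0.118 to 0.180 around 0.0313. Rhox2c had a log2 fold change of 0.165 (interval -0.077 to 0.407), Rhox2g 0.112 (-0.114 to 0.338), Rhox2b 0.106 (-0.0843 to 0.297) and Rhox2e 0.0392 (-0.178 to 0.256). These values moved by more than 1.5 times when a library was left out. They then ran from 0.0898 (without control replicate 1) to 0.282 (without control replicate 2) for Rhox2c, and from 0.0194 to 0.209 (without CCNB1IP1 replicates 1 and 2, respectively) for Rhox2g. For Rhox2b the range was 0.0567 to 0.137 and for Rhox2d 0.0187 to 0.0977, while for Rhox5, Rhox2e and Rhox2h it included 0.

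For the Rhox4 copies the data left a wide range. Rhox4a had a log2 fold change of 0.000729 with an interval of -0.342 to 0.343, while its mean FPKM was 1.80% lower in the CCNB1IP1 libraries, so the scale decides the sign. Rhox4b had 0.0898 with an interval of -0.382 to 0.561. Differences inside these unadjusted intervals are compatible with the data. The intervals are not limits of detection, since that of Rhox2a excluded 0 and the gene was still not called.

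**Figure D4:**
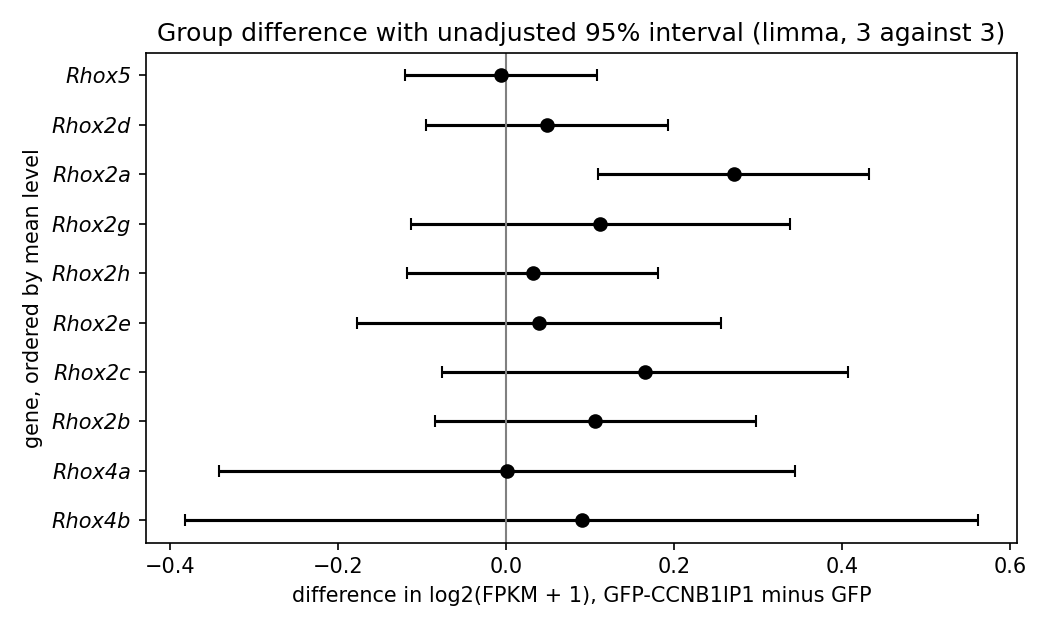
Difference in log2(FPKM + 1), GFP-CCNB1IP1 minus GFP, for the 10 members ordered by mean level; points are limma estimates from 3 against 3 libraries and bars unadjusted 95% intervals. The interval of Rhox2a (0.109 to 0.432) lies above 0 before adjustment, those of the other 9 members include 0, and the widest is that of Rhox4b.

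Summed over copies, Rhox2 had 139.1 ± 4.84 FPKM in the control libraries and 149.6 ± 5.88 in the CCNB1IP1 libraries (SD, n = 3), 7.57% higher. The lowest CCNB1IP1 library, at 144.0 FPKM, was above the highest control library, at 142.7. Among all single genes tested, the groups did not overlap for 17.6%, and 8.7% were higher in this way. Of this difference of 10.5 FPKM, Rhox2a made up 4.58 FPKM. Without any one library the difference was between 5.37 and 9.58%. The Rhox4 sum had 11.7 ± 1.57 and 12.1 ± 0.184 FPKM, 3.06% higher, with overlapping groups. The direction of that difference rested on single libraries, since it was -2.70% without control replicate 3 and 11.1% without control replicate 1. These sums include copies that are not among the 10, namely Rhox2f and 6 of the 8 Rhox4 copies, and no test is given for them.

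The shape of variation over the 6 libraries was compared with that of Rhox5 as a description. The 3 genes whose log2(FPKM + 1) followed Rhox5 most closely were Akr1b10 (Pearson r = 0.991), an aldo-keto reductase gene, Wdcp (0.983) and Rpl39l (0.981), a ribosomal protein gene paralog. Each, like Rhox5, was highest in CCNB1IP1 replicate 1. Among the members, r with Rhox5 was 0.810 for Rhox4b, 0.736 for Rhox2g and 0.573 for Rhox2e, and between -0.439 and 0.227 for the other 6. The 3 were picked as the highest of all genes tested, over 6 libraries that share their processing.

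Known regulators of the Rhox5 promoters were largely present. Rhox5 is transcribed from a distal and a proximal promoter, which gene-level tables do not separate, and ETS family factors such as GABP act on it. Of 10 listed regulators 8 were at 1 FPKM or more in every library, and 0 passed the test in either direction. Sp1 had 24.2 ± 1.60 FPKM in the control libraries and 25.3 ± 0.951 in the CCNB1IP1 libraries, Gata4 had 21.2 ± 0.557 and 21.2 ± 0.496, and Sp3 17.4 ± 1.31 and 18.1 ± 1.02. The median log2 fold change of the 8 tested was 0.0486.

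Enzymes that write and remove DNA methylation were present as well. Of 8 listed, 6 were at 1 FPKM or more in every library, and 0 passed in either direction, with a median log2 fold change of -0.107 over the 6 tested. Uhrf1, which guides the maintenance methyltransferase, had 30.7 ± 1.66 and 26.7 ± 1.51 FPKM, and Dnmt1, that methyltransferase, had 29.1 ± 2.88 and 25.6 ± 0.929. Tet3, an enzyme that oxidises 5-methylcytosine, had 18.0 ± 0.150 and 17.7 ± 0.741.

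Other germline genes known to be silenced by promoter methylation were mostly not expressed alongside Rhox5. Of 16 listed, 2 were at 1 FPKM or more in every library, 13 were below 1 FPKM in every library, and 5 of these were listed at 0 throughout. The 2 expressed were Asz1, of the piRNA pathway, with 48.1 ± 4.01 and 50.2 ± 3.04 FPKM, and Sycp1, of the synaptonemal complex, with 3.03 ± 0.544 and 2.88 ± 0.917. The next was Tex19.1 with 0.719 ± 0.117 and 0.702 ± 0.299 FPKM. Neither of the 2 tested genes passed (median log2 fold change -0.00505).

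On the X chromosome outside the Rhox cluster, 7 of 18 listed reproductive genes were at 1 FPKM or more in every library and 10 below 1 FPKM in every library. The highest were of the Xlr family of lymphocyte-regulated genes, with Xlr3c at 19.11 ± 1.33 and 18.6 ± 0.597 FPKM, Xlr3a at 12.7 ± 1.15 and 12.1 ± 1.79, and Xlr4b at 12.1 ± 1.25 and 12.1 ± 1.20. Of the 8 tested, 0 passed in either direction, with a median log2 fold change of -0.0256.

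Of 7 genes reported to respond to RHOX5, 2 were tested and 0 passed in either direction (median log2 fold change -0.0786). Unc5c, a netrin receptor gene that RHOX5 is known to hold down in Sertoli cells, had 11.7 ± 1.37 and 9.80 ± 0.897 FPKM, and Gdap1 had 9.57 ± 0.469 and 10.1 ± 0.383. Ppara had 0.541 ± 0.150 and 0.618 ± 0.109, and Ins2 and Adipoq were listed at 0 in all 6 libraries.

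Markers of the cell types in which Rhox genes are known were examined in the same libraries. Of 10 Sertoli cell markers 4 were at 1 FPKM or more in every library, with sums of 38.0 to 39.9 FPKM in the GFP and 37.9 to 39.1 in the CCNB1IP1 libraries. The highest were Gata4, given above, Sox9 at 7.15 ± 0.880 and 7.41 ± 0.301, and Dhh at 6.16 ± 0.720 and 6.65 ± 0.365, while the defining genes Wt1 and Fshr were listed at 0 in all 6. Leydig cell markers summed to 2.51 to 3.98 and 1.97 to 3.08 FPKM, with 1 of 7, Star, at 1 FPKM or more in every library (2.14 ± 0.234 and 1.76 ± 0.0479).

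None of the 8 germ cell, 8 pluripotent or 8 trophoblast markers was at 1 FPKM or more in every library. Germ cell markers summed to 0.498 to 1.05 and 0.40 to 1.81 FPKM, with Ddx4 at no more than 0.0515. Pluripotent markers summed to 0.170 to 0.275 and 0.107 to 0.147 FPKM, with Pou5f1 listed at 0, and trophoblast markers to 0.269 to 0.857 and 0.300 to 0.669 FPKM, with Cdx2 listed at 0. Mesenchymal markers summed to 6.06 to 7.63 and 6.39 to 7.72 FPKM, mostly Pdgfrb. Myeloid markers summed to 0.437 to 1.28 and 0.502 to 5.66 FPKM. The highest sum came from 1 library, CCNB1IP1 replicate 2, in which each listed myeloid marker was at its highest. Csf1r had 2.05 and Cd68 1.47 FPKM there. Each of these marker sums overlapped between the groups except that of the pluripotent markers, whereas the noradrenergic sum was lower in all 3 CCNB1IP1 libraries. Sums of the listed Rhox5 regulators (123 to 127 and 128 to 132 FPKM) and methylation enzymes (98.9 to 102 and 91.0 to 94.1 FPKM) did not overlap either. Among all single genes tested, the groups did not overlap for 17.6%. What part any of these sums had in the Rhox2a values was not tested.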

How the data were processed

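The 6 deposited gene tables, 1 per library, hold FPKM with the bounds of a confidence interval, per the file headers; the submitters' processing notes name HISAT2 and Cufflinks and no version. For genome build, annotation release and strand, nothing is stated in the labels or headers. Gene starts, taken as 0-based, were moved to 1-based. Of 53537 rows, identifiers that stood on several rows (38, none of them a Rhox gene) were summed, which left 53492 genes. FPKM were used as deposited. Genes with a mean of at least 1 FPKM were tested (13231) on log2(FPKM + 1) in R 4.3.3. The test used limma 3.58.1 with its trend option and without a replicate block. Depth is not given in the tables, so fragment numbers are estimates from the intervals and do not cover variation between libraries. They are not pure counts: Rhox3b-ps had an implied 0.04 fragments at 0.01735 FPKM in CCNB1IP1 replicate 2.

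Replicate numbers are shared between the groups, but nothing states that they pair the libraries. Same-numbered libraries had correlations of deviations from their group means of 0.023, -0.0093 and -0.011 over 13231 genes. Differently numbered libraries had -0.038 to 0.046. No effect shared by number was thus seen, which cannot show how the libraries were prepared.

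The members and lists were chosen with earlier results of these data known. Named genes were the members, other Rhox genes, the 5 nearest named genes on each side of the cluster, the 3 profiles closest to Rhox5 and the 3 highest genes of each list; Rhox4g, Zbtb33 and the genes named as at or near 0 were added after their values were seen. Sequences are not used here.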

Additional observations from a re-analysis of the deposited data

How the results depend on the processing

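Over 15 alternative settings (pseudocounts of 0.1 and 5, no filter, a mean of at least 5 FPKM, median-of-ratios scaling, quantile normalization, the replicate block, no trend, copies summed before the fit, and each of 6 libraries left out) the number of Rhox genes past the threshold was 0 in each. Their levels moved by less than the spread between libraries in 80 of 80 recomputations. Leaving out 1 of 6 libraries cannot move a mean by more than that spread. Only median-of-ratios scaling and quantile normalization could therefore have come out otherwise. Log2 fold changes of members kept their sign in 127 of 139. Part of that count was fixed in advance, because some settings alter the test but not the estimate. These are no filter, a mean of at least 5 FPKM, the replicate block, no trend and, for Rhox5, the summed copies. Rhox4a was at -0.00485 with a pseudocount of 5 and -0.000185 with median-of-ratios scaling. With each library left out in turn, log2 fold changes ran from -0.0493 to 0.0159 for Rhox5, -0.018 to 0.144 for Rhox2e, -0.0101 to 0.0749 for Rhox2h, -0.135 to 0.165 for Rhox4a and -0.101 to 0.278 for Rhox4b, and the difference of the Rhox4 sum from -2.70 to 11.1%. Over all genes, 1 passed as reported and 0 with a pseudocount of 5, with no filter, with the replicate block or without the trend. From 0 to 4 passed with a library left out, where groups did not overlap for 3391 to 4213 genes, a count that grows because fewer libraries are compared. The cause of the other changes was not tested. Low fragment numbers limit the Rhox4 copies most.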
